A study of Mus musculus with 26 samples.

Results

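The genes described here encode small structured noncoding RNAs in the mesenteric arteries of mice with altered pannexin 1. They were chosen by name and abundance: a deposited symbol starting with Snora, Snord, Scarna, Rnu, Rny or Rn7s, or equal to Rmrp, Rpph1, Terc or Gm22009, and more than 50 counts summed over all libraries. Genes that host such RNAs (Snhg) were left out. The rule found 26 genes among 57010 identifiers, of which 21031 had more than 50 counts. They comprised 15 box C/D small nucleolar RNAs (14 Snord genes and Rnu73b, which the annotation names Snord73b), 7 box H/ACA small nucleolar RNAs (Snora) and 4 small Cajal body RNAs (Scarna2, Scarna6, Scarna17 and Gm22009). No Y RNA, signal recognition particle RNA, RNase P or MRP RNA or telomerase RNA met the rule.

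Box C/D RNAs guide methylation of the ribose in ribosomal and spliceosomal RNAs, and box H/ACA RNAs guide the conversion of uridine to pseudouridine. Small Cajal body RNAs do the same for spliceosomal RNAs inside Cajal bodies. Most of these RNAs are cut from the introns of host genes, many of which encode ribosomal proteins or translation factors, and the mature forms lack a long poly(A) tail. The 7SK RNA, encoded by Rn7sk, is a longer RNA polymerase III transcript that holds the elongation factor P-TEFb in an inactive complex.

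Mesenteric arteries were taken from male mice aged 8 weeks, and the labels give poly(A) RNA as the molecule sequenced, in read pairs of 150 bases. The 8 groups were wild type (3 libraries), global Panx1 knockout (Panx1 KO, 3), and mutants and controls of 3 lines with 1 changed residue of pannexin 1. These were Y198F+/+ (3) with Y198F-/- controls (3), S205A+/+ (4) with S205A-/- controls (4), and Y308F+/+ (3) with Y308F-/- controls (3). The labels name the controls littermates or wild types, state no strain, and speak of 3 vascular trees per genotype where the S205A groups have 4 libraries. They do not say that each library is a separate animal, so p-values measure only the spread between libraries, which may be technical.

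Total counts per library ran from 14895969 to 23617902, of which the 26 genes took 92 to 856 counts. Panx1 had 61 to 96 counts in the wild-type libraries and 11 to 27 in the knockout libraries, and 16 in 1 of the S205A controls. Smooth muscle markers (Myh11, Acta2, Tagln, Cnn1, Lmod1) summed to 18586 to 37850 CPM in every library, where CPM are counts per TMM-normalised library size (TMM is the trimmed mean of M values), taken over all 26 libraries. Summed levels of other cell types varied more. In the 22 series, described next, endothelial markers ran from 761 to 5637 CPM and from 2172 to 5719 elsewhere, fibroblast markers from 117 to 1449 and 405 to 1565, white fat markers from 7.22 to 492 and 21.3 to 699, and erythroid markers from 17.5 to 217 and 0.499 to 345. Their part in the results was not tested. Of the libraries, 9 stand apart in a way that touches every result below. Their library names carry a number that begins with 22: all 3 of the Y198F mutants, and in the S205A line controls 1, 2 and 3 and mutants 2, 3 and 4. They are called the 22 series, and the labels do not explain the number. The other 17 libraries include all Y198F controls. Annotated ribosomal RNA took 0.0831% to 0.139% of counts in the 22 series and 2.32% to 7.09% in the other libraries.

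The transcripts on which the results turn are shown from the annotation (GENCODE vM39 on build GRCm39), 5′ to 3′, in lower case. The first set holds the 3 genes of the rule longer than the reads, together with Rn7sk, all of which nearly vanished from the 22 series. Gm22009 lies at chr3:68992438-68992780 on the minus strand, in an intron of Kpna4, and Scarna2 at chr3:108461654-108462067 on the minus strand, overlapping an exon of the noncoding gene Gm65135. Scarna6 lies at chr1:87712278-87712542 on the plus strand, in an intron of Atg16l1, and Rn7sk at chr9:78082585-78082915 on the minus strand. For Gm22009, Scarna2 and Rn7sk the first 300 bases are printed, and capitals mark the longest run of A in the printed part.
Gm22009: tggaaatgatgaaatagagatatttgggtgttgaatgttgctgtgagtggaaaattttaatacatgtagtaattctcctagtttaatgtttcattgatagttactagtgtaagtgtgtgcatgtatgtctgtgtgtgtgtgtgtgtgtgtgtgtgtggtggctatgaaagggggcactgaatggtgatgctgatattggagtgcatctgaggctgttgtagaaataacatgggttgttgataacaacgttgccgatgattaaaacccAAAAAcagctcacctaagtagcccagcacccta
Scarna2: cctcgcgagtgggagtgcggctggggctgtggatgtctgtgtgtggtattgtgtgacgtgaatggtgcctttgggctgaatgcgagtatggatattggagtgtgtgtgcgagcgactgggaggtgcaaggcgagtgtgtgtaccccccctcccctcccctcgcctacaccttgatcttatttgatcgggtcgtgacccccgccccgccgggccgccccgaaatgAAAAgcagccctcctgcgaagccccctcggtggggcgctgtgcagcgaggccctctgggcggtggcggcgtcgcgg
Scarna6: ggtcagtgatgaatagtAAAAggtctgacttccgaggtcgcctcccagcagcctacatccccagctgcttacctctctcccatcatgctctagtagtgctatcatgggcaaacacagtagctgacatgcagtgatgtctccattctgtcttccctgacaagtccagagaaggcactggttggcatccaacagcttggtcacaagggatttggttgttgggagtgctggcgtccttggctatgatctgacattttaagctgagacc
Rn7sk: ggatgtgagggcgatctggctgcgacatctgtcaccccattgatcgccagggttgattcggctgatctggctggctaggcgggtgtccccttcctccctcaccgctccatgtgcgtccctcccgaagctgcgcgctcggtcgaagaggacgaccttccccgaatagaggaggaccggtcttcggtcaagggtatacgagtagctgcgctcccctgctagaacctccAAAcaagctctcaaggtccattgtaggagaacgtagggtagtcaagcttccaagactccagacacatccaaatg

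The second set holds short genes that kept counts in both kinds of library, with Snora30, the short gene with the lowest relative level in the 22 series. Capitals mark the ACA that ends 3 bases before the end of box H/ACA RNAs, the last CTGA (box D) and any TGATGA (within box C) of box C/D RNAs. Snora31 lies in an intron of Tpt1 (chr14:76085345-76085474, plus strand), Snora30 in an intron of Srcap (chr7:127127046-127127175, plus) and Snord123 in an exon of Snhg18 (chr15:32241999-32242069, minus). Snord72 overlaps an exon of Rpl37 (chr15:5147886-5147966, plus) and Snord91a lies in an intron of Tsr1 (chr11:74796250-74796342, plus).
Snora31: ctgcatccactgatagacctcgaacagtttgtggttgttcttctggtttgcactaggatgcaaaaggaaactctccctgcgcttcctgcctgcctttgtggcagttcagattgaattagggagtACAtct
Snora30: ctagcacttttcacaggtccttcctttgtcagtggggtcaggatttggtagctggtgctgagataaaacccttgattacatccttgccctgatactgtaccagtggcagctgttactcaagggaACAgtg
Snord123: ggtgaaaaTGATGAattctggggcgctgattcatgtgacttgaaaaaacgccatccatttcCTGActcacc
Snord72: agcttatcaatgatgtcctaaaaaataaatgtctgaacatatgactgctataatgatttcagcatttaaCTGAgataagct
Snord91a: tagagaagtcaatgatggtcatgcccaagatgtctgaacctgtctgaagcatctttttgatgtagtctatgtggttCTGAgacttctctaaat

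Searched on the transcript strand, CTGA occurred in 15 of 15 box C/D genes and in 24 of all 26. It also occurred in 79.3% of annotated small nucleolar and Cajal body RNAs and in the first 80 bases of 34.8% of protein-coding transcripts. TGATGA occurred in 9 of the 15, in 13 of all 26, in 26.5% of the annotated RNAs and in 1.44% of those windows. ACA at that position ended 6 of 7 box H/ACA genes, 19.3% of annotated small nucleolar and Cajal body RNAs and 2.58% of protein-coding transcripts. The longest run of A in any of the 26 genes was 6 bases, and the 3 long genes had 5 (Gm22009), 4 (Scarna2) and 4 (Scarna6). A run of 5 A occurred in 6 of the 26 genes and in 9.24% of annotated small nucleolar and Cajal body RNAs. It occurred in the first 300 bases of 20.3% of protein-coding transcripts, windows longer than most of the 26 genes.

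Counts were concentrated in a few genes. All 26 together had 9381 counts, of which Gm22009 held 45.3% (4251 counts). Next came Scarna2 with 822, Snord123 with 582, Snora31 with 508, Snord72 with 483, Snord91a with 332 and Rnu73b with 316 counts. Only 4 genes (Snord123, Snora31, Snord72 and Snord91a) had counts in every library, and 19 of 26 had a median under 10 counts per library. Of the 26, 16 lay in an intron of their host and 10 overlapped a host exon, and 10 had a ribosomal protein gene as host. Rnu73b and Snord73a shared the host Rps3a1. In all, 12 overlapped an exon of some other annotated gene, on either strand. For the 10 in a host exon, on the same strand, reads of gene and host cannot be told apart by strand. Snord91a and Scarna6 overlapped an exon on the opposite strand, and how strand was used in counting is not known. Gm22009 overlapped none.

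Levels between genes can be compared only per length, as CPM per kilobase. In the 17 libraries outside the 22 series, Gm22009 led the 26 genes at 36.7 ± 9.66 CPM per kilobase (SD, n = 17), above Snord123 at 18.1 ± 7.35 and Snord72 at 13.3 ± 6.46. The neighbours below the lead (Snord123, Snord72, Rnu73b at 9.63 ± 4.14, Snora31 at 8.19 ± 3.40, Snord91a at 6.54 ± 3.27 and Scarna2 at 5.83 ± 3.02) each lay within 1 SD of the next. Rn7sk stood at 194 ± 58.0 CPM per kilobase. In the 22 series the lead was held by Snord123 at 13.7 ± 10.05 (SD, n = 9), followed by Snord72 at 9.85 ± 5.54, Snord91a at 8.86 ± 5.33, Rnu73b at 7.90 ± 3.37 and Snora31 at 7.39 ± 3.94. Gm22009 was at 0.372 ± 0.609 CPM per kilobase there, Scarna2 at 0.113 ± 0.202 and Rn7sk at 1.72 ± 1.42.

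The annotation holds 189 rows with names of these families, of which 120 had 0 counts, 38 had 1 to 50 and 31 had more than 50. The 5 of those 31 outside the rule, whose deposited symbol is blank or another, were Rn7sk (21354 counts), Snora57 (333), Snord88c (132), Snora34 (112) and Snord3b-ps2 (85). Of the rows with 0 counts 80% overlapped an exon of another gene, against 39.5% of rows with 1 to 50 counts and 48.4% of rows above 50. Rmrp, Rpph1, Terc, Rny1 and Rny3 all had 0 counts, and each overlaps another annotation record. For Rmrp, Terc and Rny1 a record of the same name is among those overlapped. Rn7s1 and Rn7s2, 2 copies of the signal recognition particle RNA, had 39 and 40 counts. Just inside the threshold stood Snora20 with 53 and Snord89 with 61 counts, and just outside Snord35a with 50 and Snord17 with 49.

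**Figure D1:**
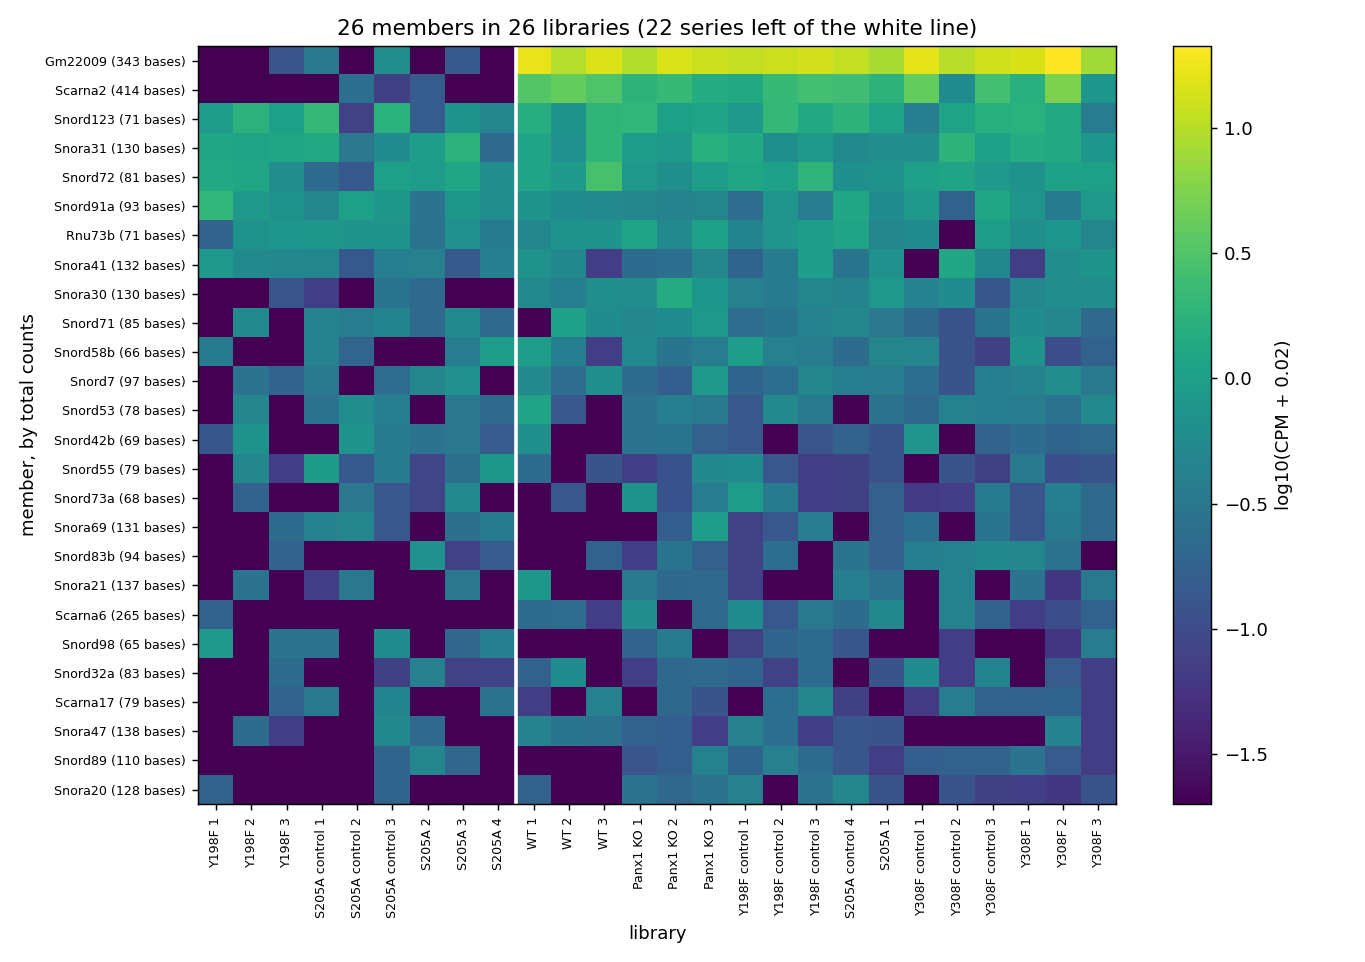
Level of each of the 26 genes (rows, with annotated length, ordered by total counts) in each library (columns), as log10 of CPM plus 0.02, with the 9 libraries of the 22 series left of the white line. Gm22009 and Scarna2 are bright in the 17 libraries on the right and dark on the left, while most short genes have counts on both sides of the line.

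Gm22009 separated the 22 series from the other libraries. Its counts in the 22 series were 0, 0 and 2 in the Y198F mutants, 6, 0 and 11 in controls 1, 2 and 3 of the S205A line, and 0, 2 and 0 in its mutants 2, 3 and 4. In the 17 other libraries its counts had a lowest value of 157, a median of 230 and a highest of 500. Within the S205A line the control and the mutant outside the series had 208 and 173 counts. The ranges did not overlap. The level was 0.128 ± 0.209 CPM in the 22 series (SD, n = 9) against 12.6 ± 3.31 CPM elsewhere (SD, n = 17), a 95.8-fold lower level with a 95% counting interval of 62.6 to 155. Of the 21 counts in the series 11 lay in S205A control 3, without which the level was 178-fold lower (96.8 to 372). Intervals in this text are exact binomial ones and cover counting error only. Floors set a group without counts to 3 counts and leave out the counting error of the other group.

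Scarna2 followed the same split. Its counts in the 22 series were 0, 0 and 0 in the Y198F mutants, 0, 4 and 1 in the 3 S205A controls and 2, 0 and 0 in the 3 S205A mutants of the series. In the other 17 libraries its counts had a lowest value of 11, a median of 44 and a highest of 126. The ranges did not overlap, and the level was 55.4-fold lower in the 22 series (95% counting interval 26.8 to 138). Of its 7 counts there 4 lay in S205A control 2, without which 3 remained and the level was 115-fold lower (39.3 to 560). The lowest value outside the series, 11 counts, was in Y308F control 2, where Gm22009 had 194 counts. Scarna6, the third long gene, had counts in 1 of the 9 libraries of the series (3 counts, Y198F 1) and in 15 of the 17 others, where the highest count was 11. Its level was 11.6-fold lower (3.81 to 57.4), and its ranges overlapped.

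Genes without overlap between the 9 and the 17 libraries made up 0.989% of all genes above 50 counts in the direction lower in the 22 series, and 3.16% in the direction higher. Of the 26 genes, 2 (Gm22009 and Scarna2) were lower without overlap and 0 were higher.

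Rn7sk, outside the rule but of the same length class, had a lowest count of 0, a median of 8 and a highest of 20 in the 22 series. Its lowest, median and highest counts were 826, 1092 and 2042 in the other libraries. Its level was 116-fold lower in the series (94.2 to 145). Gm55636 (321 bases) and Gm54754 (338 bases), annotated like Rn7sk as miscellaneous RNA, had 0 to 10 and 0 to 3 counts in the series. In the others they had 27 to 161 and 45 to 189 counts, without overlap. Their sequences were not compared with that of Rn7sk, and near-identical copies can share reads, so these may not be independent of it.

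**Figure D2:**
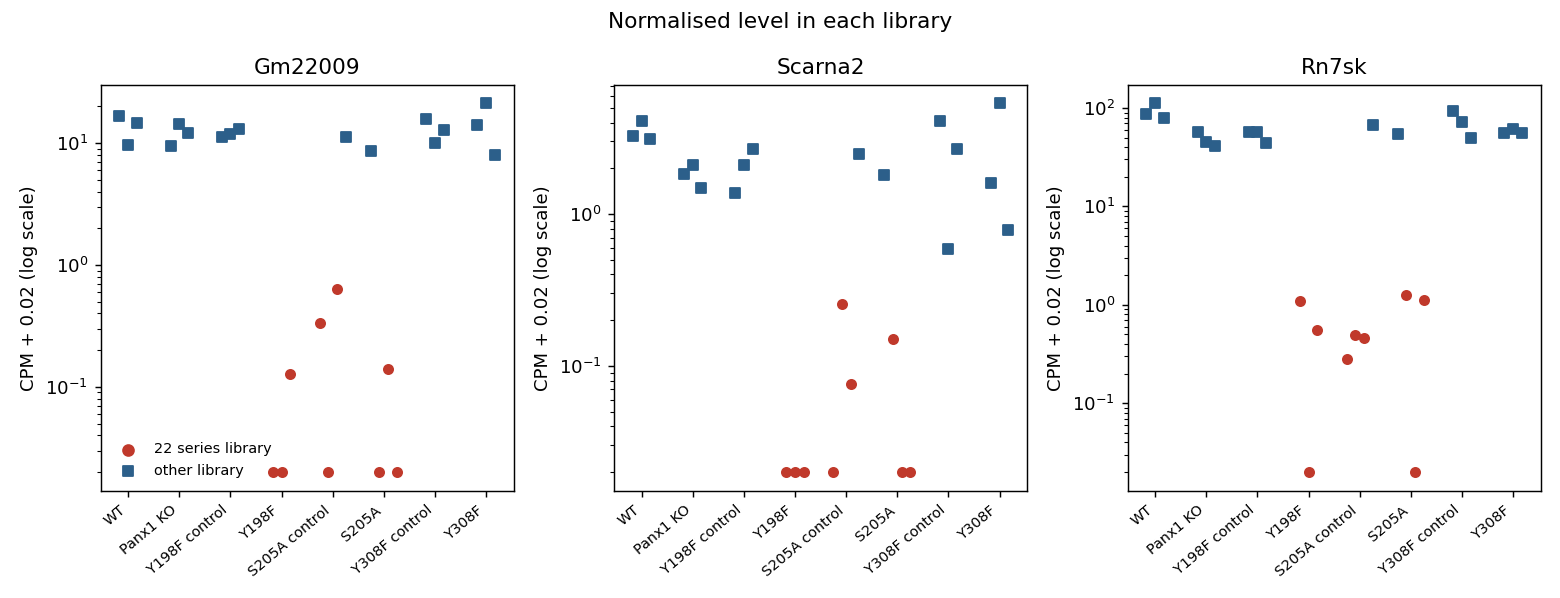
Normalised level (CPM plus 0.02, log scale) of Gm22009, Scarna2 and Rn7sk in each library by group, with 22 series libraries as red circles and others as blue squares. Every red point lies below every blue point in each panel, including within the S205A line, where both kinds of library occur.

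The genes that split the libraries without overlap, Gm22009 and Scarna2, are the longest of the 26. The 3 genes of 150 bases or more (265, 343 and 414 bases) summed to 0.193 ± 0.204 CPM in the 22 series (SD, n = 9, 31 counts in all) but to 15.2 ± 4.19 CPM elsewhere (SD, n = 17, 5118 counts, of which 4230 were of Gm22009). The 23 genes shorter than 150 bases, the read length, summed to 7.49 ± 1.66 CPM in the series and 9.17 ± 1.40 CPM in the others, with ranges of 5.29 to 9.23 and 7 to 12 that overlapped. The fourth small Cajal body RNA, Scarna17 (79 bases), had a ratio of 0.920 (0.523 to 1.57) between the series and the others. Across the 26 genes, which share libraries and whose ratios vary in precision, Pearson's r of length with the log2 ratio was -0.885 and Spearman's rho -0.518. Among the 23 short genes rho was -0.304.

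**Figure D3:**
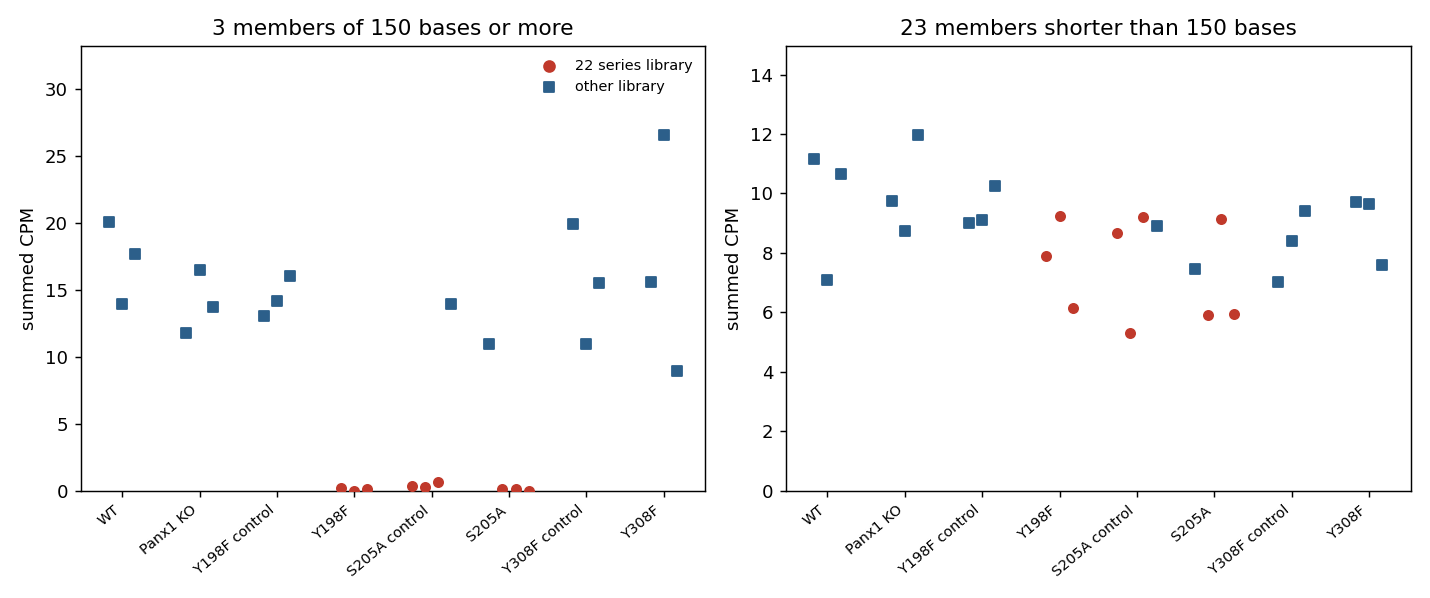
Summed CPM per library of the 3 genes of 150 bases or more (left) and the 23 shorter genes (right), by group, with 22 series libraries as red circles and others as blue squares. The long genes sum to at most 0.666 CPM in the red libraries and at least 8.90 CPM in the blue ones, while the short genes overlap.

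The short genes differed far less between the 22 series and the other libraries. Their ratio had a median of 0.742, lay below 1 for 18 of 23 (for 55.4% of all genes above 50 counts, whose median was 0.966), and had a counting interval wholly below 1 for 10 and wholly above 1 for 3. Of all genes above 50 counts 41.5% had such an interval below 1 and 33.3% above 1, since libraries differed beyond counting error. The median was 0.707 for the 14 in introns and 0.797 for the 9 that overlap a host exon. Snora30, a pseudouridine guide in an intron of Srcap, had the lowest ratio of the 23. Its counts in the series were 0, 0 and 2 in the Y198F mutants, 1, 0 and 5 in the 3 S205A controls and 3, 0 and 0 in the 3 S205A mutants. In the others they had a lowest value of 2, a median of 10 and a highest of 30. Its level was 8.13-fold lower (4.44 to 16.6), with ranges that overlapped, and 13.2-fold lower (5.95 to 36.4) without S205A control 3. Snora20 was 3.73-fold lower (1.59 to 10.7) on 6 and 47 counts, and 6.60-fold lower without the same library, on 3 counts.

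The 3 short genes whose interval lay above 1 were Snord98 with a ratio of 3.19 (1.95 to 5.29), Snord55 with 2.28 (1.51 to 3.45) and Snord91a with 1.39 (1.11 to 1.74). Snord91a stood at 1.13 without Y198F mutant 1, and at 0.736 (0.479 to 1.15) within the S205A line, where its direction was the opposite. The most abundant short genes differed less than the long ones. Snord72 stood at 0.798 ± 0.448 CPM in the series (SD, n = 9) and 1.08 ± 0.523 CPM in the others (SD, n = 17). With single libraries left out its ratio lay between 0.673 and 0.823. Snord123 had a lowest count of 1, a median of 17 and a highest of 39 in the series and 7, 26 and 38 in the others, a ratio of 0.797 (0.660 to 0.958). Snora31 had 3, 21 and 29 against 10, 18 and 37, a ratio of 0.915 (0.752 to 1.11). Snord123 and Snora31 overlapped over most of their ranges. Within the S205A line the edgeR log2 fold change for the series was 0.57 (SE 0.912) for Snora31, the opposite direction, and -0.92 (SE 0.949) for Snord123.

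**Figure D4:**
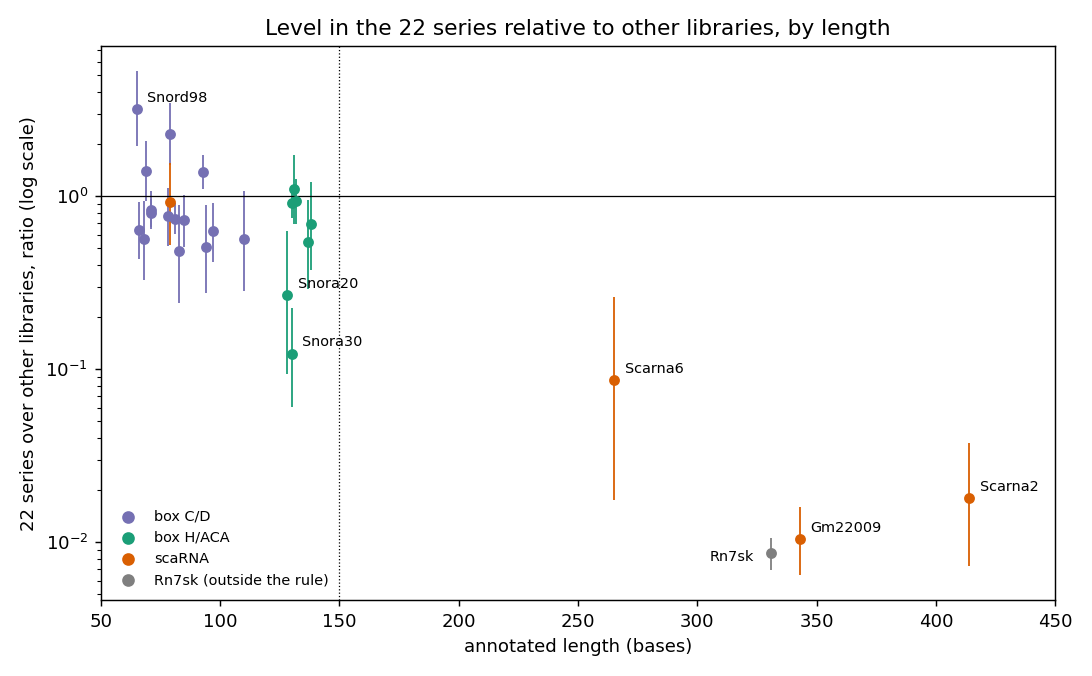
Ratio of the level in the 22 series to that in the other libraries (log scale) against annotated length, for the 26 genes and Rn7sk, with 95% counting intervals as bars. The dotted line marks the read length of 150 bases, and the 4 genes to its right lie at ratios of 0.0864 or less.

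As a share of all counts, the 26 genes took 0.000778% ± 0.000177 in the 22 series (SD, n = 9) against 0.00242% ± 0.000483 elsewhere (SD, n = 17). Without Gm22009 the shares were 0.000765% and 0.00117%. In this bulk tissue, fewer cells of a type and less RNA per cell cannot be told apart. Ribosomal RNA moved with the series in the same direction, and its part in these differences was not tested.

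The S205A line is the only one with libraries of both kinds, so the series was tested there with the genotype as a second term (6 libraries against 2). Gm22009, Scarna2 and Rn7sk fell in the series, and none of the other 6 small RNA genes tested was called. Both small Cajal body RNAs passed the filter on low counts only through the 2 libraries outside the series, so a call could lie only in the lower direction. By edgeR's quasi-likelihood test with Benjamini-Hochberg adjustment, 5.02% of 17256 genes passed an adjusted p of 0.05 and 1.16% passed it in the lower and 3.87% in the higher direction. Of the 26 genes, 8 passed the filter and 2 of them were called: Gm22009 fell by 6.05 on the log2 scale (SE 0.828, edgeR adjusted p = 0.00578) and Scarna2 fell by 4.87 (SE 1.02, edgeR adjusted p = 0.0283). Rn7sk fell by 6.76 (SE 0.616, edgeR adjusted p = 0.00232). The largest value in the higher direction was that of Snord55, at 2.27 (SE 1.39, edgeR adjusted p = 0.413), with 17, 2 and 6 counts in the controls and 1, 4 and 12 in the mutants of the series and 1 and 2 counts outside it. In counts of the same libraries Gm22009 was 52.9-fold lower (33.4 to 88.9) and Scarna2 30.9-fold lower (14.3 to 79.3). Scarna6 had 0 counts in 6 libraries against 14 in 2, which is 12.3-fold lower with the floor of 3 counts taken over the group. Without S205A control 3 Gm22009 was 103-fold lower (51.97 to 241), and without S205A control 2 Scarna2 was 60.1-fold lower (19.9 to 297).

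The test rests on 2 libraries outside the series. Without S205A control 4 none of the 26 was called (82 genes in all), nor without S205A mutant 1 (113 genes). Without S205A control 3, mutant 3 or mutant 4 only Gm22009 was called among the 26. Over all these omissions the log2 fold change lay between -7.47 and -5.15 for Gm22009 and between -5.64 and -4.58 for Scarna2. With all 8 groups in the fit, 3 of 18 tested were called, all lower, and 2131 genes passed.

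Y198F mutants were then set against their labelled controls, which asks what the change of this tyrosine does to the arteries. All mutants and no controls belong to the 22 series, so the mutation and the series cannot be told apart. Gm22009 had 0, 0 and 2 counts in the mutants and 199, 212 and 251 in the controls, 338-fold lower on 2 counts (93.2 to 2797). Scarna2 had 0, 0 and 0 counts against 24, 37 and 51, which is 38.1-fold lower with the floor of 3 counts over the group. Neither gene overlapped between the groups. Among all genes above 50 counts 14.3% lay lower without overlap and 16.1% higher, beside 5 and 0 of the 26 small RNA genes: Gm22009, Scarna2, Snora30, Snord58b and Snord89. By edgeR 15% of 16050 genes passed and 5.48% passed in the lower direction. Of the 26 genes 7 passed the filter and 2 were called, both lower: Gm22009 fell by 8.15 on the log2 scale (SE 0.529, edgeR adjusted p = 6.03e-06), and Scarna2 passed at an edgeR adjusted p of 0.0016. Both passed the filter on low counts only through the control group, so a call could lie only in this direction. Rn7sk had 20, 0 and 10 counts in the mutants against 1012, 1014 and 847, so the same limit holds for it. It fell by 6.60 (SE 0.618, edgeR adjusted p = 0.00305). With all 8 groups in the fit and the series as a term, which rests on the S205A line, its log2 fold change was 0.14.

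The 5 short genes tested in that comparison did not pass. Their log2 fold changes were 1.41 (SE 0.701, edgeR adjusted p = 0.21) for Snord91a, 0.30 (SE 0.538) for Snora31, -0.20 (SE 0.535) for Snord123, -0.37 (SE 0.538) for Snord72 and -0.41 (SE 0.718) for Rnu73b. Snord91a had 37, 16 and 13 counts in the mutants and 4, 13 and 7 in the controls, groups that met at 13. With all 8 groups in the fit only Gm22009 was called among the 26 (922 genes in all). With the series as a further term edgeR called none of the 18 tested and no gene of any kind (0 and 486 at an unadjusted p under 0.05; DESeq2 was not run with that term).

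Set against the 3 S205A controls of the same series, the Y198F mutants had Gm22009 counts of 0, 0 and 2 against 6, 0 and 11, and Scarna2 counts of 0, 0 and 0 against 0, 4 and 1. The groups overlapped for both, and neither passed the filter. Of the 5 genes tested, edgeR called 0 where 0.0% of 15879 genes passed, with 0 at an unadjusted p under 0.05, and DESeq2 called 0 of 11. Among these 5, which leave out Gm22009 and Scarna2, the largest difference was that of Snord72, at 1.24 on the log2 scale (SE 0.898, adjusted p = 1 by edgeR). It had 25, 23 and 11 counts against 4, 2 and 18. In the authors' deposited table for Y198F, Gm22009 and Scarna2 are listed at log2 fold changes of -6.44 and -6.16 with adjusted p of 0.199 and 0.214. That table was matched within 0.00016 by a recomputation against all 4 S205A controls, and its correlation with a recomputation against the Y198F controls was 0.535.

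The Panx1 knockout and wild-type libraries lie outside the 22 series and differ in the genotype of the channel gene. None of the 8 small RNA genes tested was called by edgeR, where 0.0309% of 16193 genes passed (0.0185% lower and 0.0124% higher). At an unadjusted p under 0.05 there was 1, Scarna2, and DESeq2 called 0 of the 2 to which it gave an adjusted p. Scarna2 had 34, 44 and 29 counts in the knockout and 63, 73 and 60 in the wild type, groups that did not overlap. Without overlap 9.06% of all genes above 50 counts were lower in the knockout and 8.09% higher, beside 3 (Scarna2, Snord91a and Snora47) and 2 (Snord89 and Snora20) of the 26. On the log2 scale Scarna2 differed by -0.94 (SE 0.312, unadjusted p = 0.0145, adjusted p = 0.36 by edgeR). Gm22009 had 177, 305 and 239 against 321, 174 and 282 counts, which overlapped, and a log2 fold change of -0.16 (SE 0.232). Snora30 had 11, 30 and 15 against 10, 7 and 12 counts or 0.87 on the log2 scale (SE 0.564, adjusted p = 0.61 by edgeR).

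Rn7sk had 1073, 950 and 826 counts in the knockout and 1694, 2010 and 1551 in the wild type, without overlap. Its log2 fold change of -0.94 (SE 0.16) had an edgeR adjusted p of 0.211. Some other settings put it past the threshold: adjusted p was 0.000241 by DESeq2 and 7.09e-09 by edgeR without the filter. In the authors' deposited table for Panx1 KO it stood at -0.95 (SE 1.67), with a DESeq2 adjusted p of 0.946. Annotated ribosomal RNA took 2.32% to 3.09% of counts in the knockout and 4.12% to 5.84% in the wild type. The share moved with Scarna2 and Rn7sk, and its part in them was not tested.

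**Figure D5:**
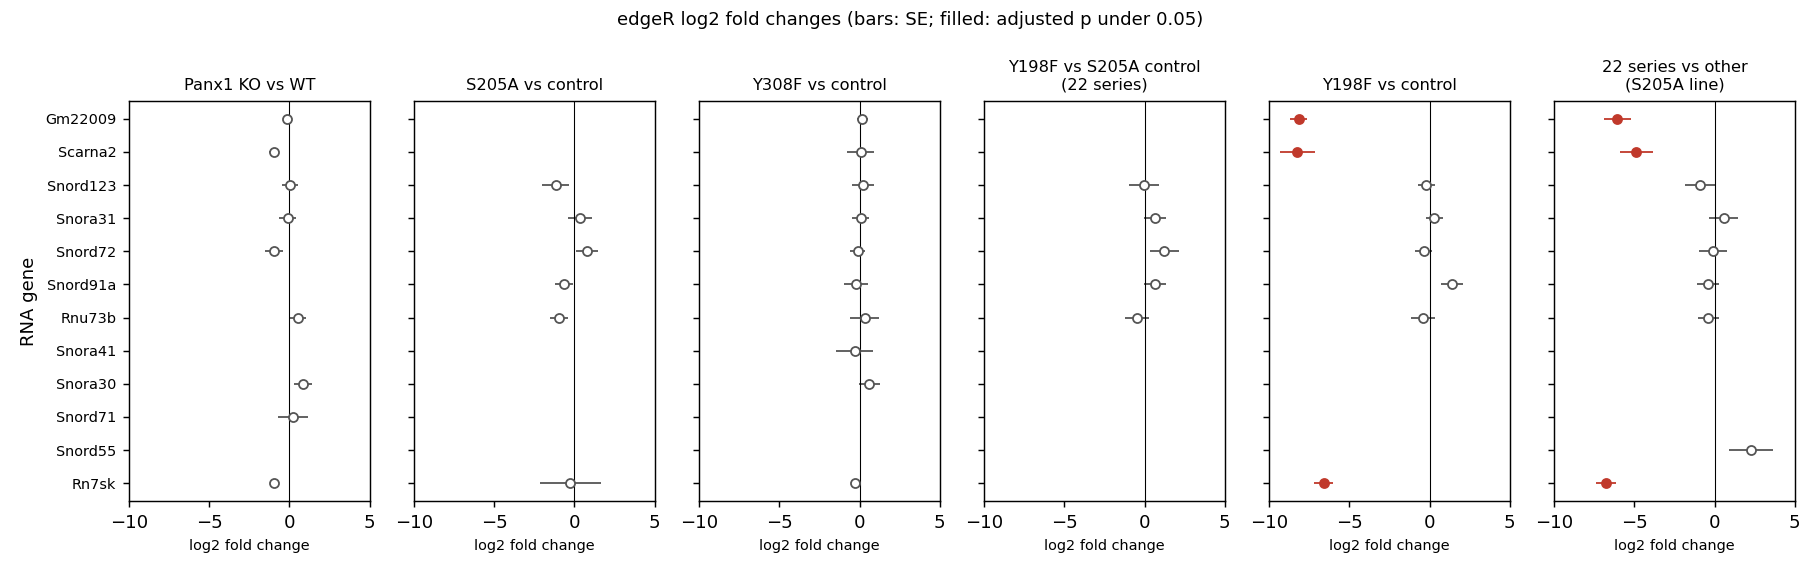
edgeR log2 fold changes (points) with SE (bars) of every small RNA gene that passed the filter, and Rn7sk, in 6 comparisons, filled red where the adjusted p was under 0.05. Filled points occur only in the 2 comparisons that set 22 series libraries against others, at Gm22009, Scarna2 and Rn7sk, where the Scarna2 value for Y198F rests on 0 counts in the mutants and depends on the fitted prior count.

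The S205A comparison asks about the serine, with 3 of 4 libraries of each group in the 22 series. Gm22009 had 173, 0, 2 and 0 counts in the mutants and 6, 0, 11 and 208 in the controls, and Scarna2 36, 2, 0 and 0 against 0, 4, 1 and 46. In each group 1 library outside the series carried nearly all counts, so neither passed the filter. Without the filter edgeR gave log2 fold changes of -0.44 (SE 2.19) and -0.48 (SE 1.83). Of the 5 genes tested (Snord123, Snora31, Snord72, Snord91a and Rnu73b) edgeR called 0 where 0.0% of 15709 genes passed, with 0 at an unadjusted p under 0.05, and DESeq2 called 0 of 1. Among these 5 the largest difference was that of Snord123, at -1.18 (SE 0.866, edgeR adjusted p = 1), with 22, 2, 12 and 7 counts in the mutants and 39, 1, 30 and 33 in the controls.

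Y308F mutants and their controls all lie outside the series. Of the 9 genes tested edgeR called 0 where 0.0% of 16037 genes passed, with 0 at an unadjusted p under 0.05, and DESeq2 called 0 of 26. Gm22009 had 265, 500 and 157 counts in the mutants and 343, 194 and 230 in the controls, a log2 fold change of 0.17 (SE 0.34). Scarna2 had 30, 126 and 15 against 88, 11 and 48 counts, a log2 fold change of 0.09 (SE 0.84). The groups overlapped for both, and Y308F mutant 2 was highest for both. Differences between the effects of Panx1 KO, S205A and Y308F, tested as interactions in 3 pairs, passed for 0 of the 12, 12 and 9 small RNA genes tested, with 0 at an unadjusted p under 0.05. Over all genes 1 of 17799, 2 of 17278 and 0 of 17602 passed. The authors' deposited tables list 5, 16, 17 and 26 of the small RNA genes for Panx1 KO, Y198F, S205A and Y308F, and none of those listed passes an adjusted p of 0.05. Over all genes 20 of 14914, 3 of 18991, 96 of 19399 and 0 of 21030 pass in the authors' deposited tables.

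Host genes were read from the same tests. Kpna4, an importin that carries proteins into the nucleus and hosts Gm22009, differed by -0.21 on the log2 scale (SE 0.0917, adjusted p = 0.159 by edgeR) between Y198F and its controls, and of -0.26 (SE 0.109, edgeR adjusted p = 0.225) for the series in the S205A line. Of the hosts tested, 3 of 22 passed in the Y198F comparison, where 15% of all genes did: Rpl23a (host of Snord42b) fell by 1.20 and Ccar1 (host of Snord98) by 0.38, and Rpl39 (host of Snora69) rose by 0.52. For the series, where 5.02% of all genes passed, 2 of 23 did: Rpl23a fell by 1.20 and Rpl39 rose by 0.82. The median log2 fold change of the hosts was -0.11 and -0.09 in these comparisons, beside -0.0028 and 0.0042 for all genes tested. It was -0.12 for Panx1 KO, -0.17 for Y308F, -0.09 for S205A and -0.07 for Y198F against the S205A controls of its series. The medians of all genes tested there were 0.0052, -0.025, -0.013 and -0.0094. No host passed in the other comparisons.

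Proteins that build, bind or process these RNAs were read from 10 lists of 118 genes in all. Between Y198F and its controls 10 of the 115 tested rose and 14 fell, beside the 9.55% and 5.48% of all genes given by the same test, and for the series in the S205A line 3 rose and 4 fell of 115, beside 3.87% and 1.16% of all genes. None passed in any of the other comparisons. Of 9 box C/D proteins 1 rose and 1 fell with Y198F: Rrp9, a U3 particle protein, by 0.63 (SE 0.141) and Znhit6, an assembly factor, by 0.93 (SE 0.22), which also fell by 0.94 (SE 0.214) with the series. Among 9 box H/ACA and telomerase proteins 1 fell, the core protein Gar1, by 0.65 (SE 0.185). The 7SK list had 1 of 7 in each direction: Cdk9, the kinase of P-TEFb, rose by 0.53 (SE 0.0984) and Larp7, which binds the 3′ end of 7SK, fell by 0.53 (SE 0.135).

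In the list of RNA-binding proteins of Y RNAs and polymerase III transcripts, 2 of 4 fell in both comparisons. Ssb, the La protein, fell by 0.69 (SE 0.0921) with Y198F and by 0.59 (SE 0.0981) with the series, and Ro60 fell by 0.45 (SE 0.105) and 0.49 (SE 0.0987). The polymerase III list had 1 of 24 higher and 5 lower with Y198F, Snapc5 falling most, by 0.92 (SE 0.149), and by 0.87 (SE 0.177) with the series. Of 28 snRNP proteins 27 were tested, of which 5 rose and 3 fell with Y198F, and 2 rose and 0 fell with the series. In both it was Snrpb (0.54 and 0.67) and Gemin7 (0.57 and 0.62) that rose. The U11/U12 list had 1 of 7 lower with Y198F, Snrnp35, by 1.70 (SE 0.339), and 0 of 7 with the series. Pop5, of RNase P and MRP, rose by 0.62 (SE 0.135) and 0.70 (SE 0.164), the only 1 of 10 tested in that list, and 1 of 10 signal recognition particle genes, Srprb, rose with Y198F by 0.36 (SE 0.102). Of the 8 tested genes that tail or trim small RNA ends, among them Parn, Toe1 and Exosc10, none passed. Both comparisons set 22 series libraries against others, and their libraries do not overlap.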

How the data were processed

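Poly(A) RNA of mesenteric arteries was sequenced in 26 libraries, with total counts of 14895969 to 23617902 per library. Reads were mapped to GRCm39 with STAR 2.7.9a and counted per gene with featureCounts (Rsubread 2.20.0), per the submitters' processing notes; the annotation release and the use of strand are not given in the sources used here. The authors deposited these raw counts. A second deposited table holds a normalised signal, the counts divided by 1 factor per library, used only to check the count table. The authors' deposited comparison tables from DESeq2 (1.46.0, per the submitters' processing notes) give log2 fold changes, p-values and the Wald statistic, a score. They were used only where they are named.

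The members, gene lists and tests were chosen with earlier results of these data known. Counts were tested with edgeR 4.0.16 in R 4.3.3 (quasi-likelihood, TMM, filterByExpr, Benjamini-Hochberg adjustment over all genes tested, threshold 0.05) on the groups compared only. Alternatives were DESeq2 1.42.0, its size factors in edgeR, library sizes without ribosomal RNA genes and the 26 members, no filter on low counts, all 8 groups in the fit with and without the library series, a replicate block, and the omission of single libraries. The omission of each library from the ratios of summed counts was added after the data were seen. A separate rule for the genes to be named with values listed Gm22009, Rn7sk (not one of the 26), Rmrp, Rpph1, Terc, the Rny and Rn7s genes, the 4 members of each name family with the highest mean CPM, up to 6 members per direction past the threshold, and the genes at the limit of 50 counts. All other members named, Gm55636, Gm54754 and the single genes named from the pathway lists and hosts were chosen after their values were seen. Rate ratios of summed counts per library size carry 95% exact (Clopper-Pearson) intervals, and the floor is 3 counts over the group. Identifiers, sequences and positions come from GENCODE vM39 on GRCm39, in which 56310 of 57010 identifiers and all 26 members were found. Calculations and plots used Python 3.11.15, SciPy 1.17.1 and matplotlib 3.10.9. The fits were tested on simulated data. Replicate numbers were checked for pairing; in no comparison did every pair of same-numbered libraries correlate above 0.1 in its deviations.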

Additional observations from a re-analysis of the deposited data

Results flagged for a closer look

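In the S205A groups of 4 libraries, 1 library often lay far from the other 3. Of 58 groups examined 17 had such a library, where chance gives about 1 in 20 for continuous values. That rate does not apply to 6 of the 17, in which the other 3 libraries were at 0 and any count stands apart: Scarna6 in both groups, Snord83b and Snord32a in the controls, and Scarna17 and Snora20 in the mutants. Most of the 17 belong to the 2 libraries outside the 22 series. S205A mutant 1 had 8.64 CPM of Gm22009, 1.80 of Scarna2, 0.499 of Scarna6, 0.0999 of Snora20 and 54.5 of Rn7sk, and 3.06% of ribosomal RNA. S205A control 4 had 11.2 CPM of Gm22009, 2.48 of Scarna2, 0.216 of Scarna6, 1.13 of Rnu73b, 0.270 of Snord83b and 66.8 of Rn7sk, and 3.03% of ribosomal RNA. In each case these were above the other 3 libraries of the group, whose Gm22009 levels reached at most 0.120 and 0.611 CPM. Within the series, S205A mutant 2 was above its group for Snord83b (0.655 CPM, 10 counts) and Snord32a (0.393 CPM, 6 counts). Mutant 4 had 4 counts of Scarna17 (0.258 CPM) and control 3 had 1 count of Snord32a (0.0555 CPM), each against 0 in the other 3 libraries.

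For 6 short genes every Y198F mutant lay on 1 side of its controls' mean and every library of another mutant lay on the other side. These differences between effects were not tested. The 6 of 26 genes, from 3 pairs of comparisons each, stand beside 29.7% of all genes above 50 counts that met the same description. Snord91a was at 1.18 CPM in Y198F and 0.440 in its controls, against 0.451 in Panx1 KO and 0.597 in wild type, and 0.542 in S205A and 0.871 in its controls. Snora30 was at 0.0355 against 0.399 CPM in Y198F and its controls, 0.918 against 0.507 in Panx1 KO and wild type, and 0.558 against 0.364 in Y308F and its controls. The remaining genes were lower in Y198F: Snord73a at 0.0530 against 0.429 CPM, Snord89 at 0 against 0.257, Snora20 at 0.0543 against 0.217 and Snord7 at 0.142 against 0.287. In Panx1 KO and wild type the first 3 of these were at 0.378 against 0.0370, 0.217 against 0 and 0.235 against 0.0517 CPM, and Snord7 was at 0.439 against 0.240 CPM in Y308F and its controls. All Y198F mutants and no Y198F controls belong to the 22 series, and of these genes only Snord91a had a median of 10 or more counts per library.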

How the results depend on the processing

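Of 182 recomputed counts and shares 148 stayed within the set limits of the reported value, as did 538 of 595 recomputed fold changes in direction and side of the threshold. The 2 calls of Y198F against its controls became 1 with all 8 groups in the fit (922 genes) and 0 with the series as a term (0 genes). There the log2 fold changes of Snora31, Rn7sk and Snord123 turned to -0.27, 0.14 and 0.71. Leaving out 1 library gave 908 to 2128 genes, 908 without Y198F control 3 and 1546 without Y198F control 1. For the series in the S205A line, leaving out 1 library gave 0 to 2 calls and 82 to 1140 genes. That was 388 genes without S205A control 3, 566 without mutant 3 and 486 without mutant 4. DESeq2 gave 1336 genes and all groups in the fit 2131. Genes called for Panx1 KO went from 5 to 117 by DESeq2 and 243 without the filter, and to 1 to 5 without 1 library (1 without wild type 1 or any 1 knockout, 3 without wild type 2). For S205A they went from 0 to 47 by DESeq2 and 0 to 1 without 1 library, for Y308F to 7 without the filter and 0 to 1, and for Y198F against the S205A controls of its series to 37 by DESeq2 and 9 without the filter. The cause of these shifts was not tested. Of 753 ratios of summed counts recomputed without 1 library, 748 lay within the counting interval of the reported ratio. The share outside the series without its most abundant gene was 0.00117%.

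Same-numbered libraries share only a number. Each library correlated best with its own number in 3 of 6, 2 of 6, 1 of 8 and 2 of 6 cases for Panx1 KO, Y198F, S205A and Y308F. With the replicate block, Panx1 KO had 19 genes, Y198F 1720 with the same 2 calls, and the series 1 call, Gm22009. With the block and with the series as a term, Rn7sk in S205A turned to 0.077 and 0.21, and with the block Scarna2 in Y308F to -0.18 and Snord91a in Y308F to 0.011.

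Log2 fold changes that turned direction when 1 library was left out were all of genes not called. They ran, for Panx1 KO, from -0.37 to 1.12 (Snord71), -0.44 to 0.33 (Snora31) and -0.32 to 0.35 (Snord123). For Y198F they ran from -0.71 to 0.013 (Rnu73b) and -0.54 to 0.16 (Snord123), and against the S205A controls of its series from -0.58 to 0.50 (Snord123). For S205A they ran from -0.22 to 0.68 (Snora31) and -4.46 to 5.17 (Rn7sk), and for the series from -0.77 to 0.35 (Snord72). For Y308F they ran from -0.90 to 0.93 (Snora41), -0.20 to 0.47 (Gm22009), -0.25 to 1.12 (Rnu73b), -1.03 to 0.70 (Scarna2), -0.24 to 0.55 (Snora31), -0.69 to 0.34 (Snord91a), -0.23 to 0.047 (Snord72) and -0.20 to 0.67 (Snord123). With medians under 10 counts per library for 19 of the 26 genes, depth limits most of them to summed counts.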
